A study of Mus musculus with 17 samples.

Results

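The nuclear RNA polymerases of mouse haematopoietic stem cells (HSCs) were followed through the genes of their subunits. The members were the protein-coding genes whose symbols start with Polr1, Polr2 or Polr3 in GENCODE M21, an annotation of mouse build GRCm38. This gave 28 genes of the 54838 counted in each library. RNA was sequenced in bulk from marrow cells of C57BL/6 Jrj mice, enriched for c-kit and sorted into trizol as lineage-negative, Sca1+, c-Kit+, CD48- and CD150+ cells. Per the labels, old mice over 18 months of age received 5 daily intraperitoneal injections of Mito-Q at 2 mg/kg (n = 5 libraries) or were labelled control (n = 3). Young mice of 8 to 12 weeks received 1 intraperitoneal injection of CCCP at 0.3 mg/kg (n = 5) or were labelled control (n = 4). Mito-Q is a ubiquinone that accumulates in mitochondria and acts there as an antioxidant, and CCCP is a protonophore that uncouples mitochondria. All groups shared the strain and the sort. Vehicle treatment of the controls, the interval between injection and sort, and the origin of each library from a separate mouse are not stated in the labels, so that p-values measure only the spread between these libraries, which may be technical.

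Eukaryotic nuclei divide transcription among 3 related enzymes. RNA polymerase I makes the large ribosomal RNA precursor, polymerase II makes messenger RNAs and many small nuclear RNAs, and polymerase III makes transfer RNAs and other short structured RNAs. Each has a core built around its largest and second largest subunits, some small subunits are shared between the enzymes, and ribosome production draws on all of them, since polymerases I and III make ribosomal RNAs and polymerase II reads the ribosomal protein genes. Of the 28 members, 3 encode subunits of polymerase I only (Polr1a, Polr1b, Polr1e), 2 are shared by polymerases I and III (Polr1c, Polr1d), 8 belong to polymerase II (Polr2a, Polr2b, Polr2c, Polr2d, Polr2g, Polr2i, Polr2j and the associated factor Polr2m), 5 are shared by all 3 enzymes (Polr2e, Polr2f, Polr2h, Polr2k, Polr2l) and 10 belong to polymerase III (among them Polr3a, Polr3b, Polr3c, Polr3d, Polr3e, Polr3f, Polr3g, Polr3gl and Polr3k).

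Read counts assigned to genes ran from 5649611 to 8120443 per library, and member counts ran from 12 reads (Polr3gl, old Mito-Q 3) to 4015 reads (Polr2m, young control 1). All 28 members passed the filter on low counts, which kept 24523 genes. Young CCCP 3 and young control 3 stood apart: their median Spearman correlations with the other libraries were 0.643 and 0.705, against 0.779 to 0.885 in the other 15. The share of reads assigned to no gene ran from 40.6% to 49.0% in old Mito-Q libraries and from 37.7% to 68.8% in old controls. It ran from 40.0% to 76.2% in young CCCP libraries and from 43.5% to 52.1% in young controls. None of 7 genes of an HSC marker list (Kit, Ly6a, Slamf1, Procr, Mecom, Hlf, Ptprc) was at 0 in any library. Of these, Kit, Ly6a and Slamf1 encode c-Kit, Sca1 and CD150 of the sort, and Procr, Mecom, Hlf and Ptprc are not named in it. In old controls they summed to 2043 to 2203 CPM (counts scaled to library size with TMM factors), against 2502 to 2878 CPM in young controls, with no overlap. Their sum ran from 2238 to 2712 CPM in old Mito-Q libraries, above all 3 old controls, and from 1599.9 to 3148 CPM in young CCCP libraries. Between old and young controls the 7 did not move together: 3 had log2 fold changes above 0. Of the 7, 6 had an unadjusted p below 0.05 in this comparison. Only 1 was called, Ptprc, lower in old controls at a log2 fold change of -1.18 (SE 0.30, edgeR adjusted p = 0.0396). The summed level of 10 neutrophil granule genes ran from 983 to 14235 CPM in old Mito-Q libraries, against 1089 to 2393 CPM in old controls, and from 762 to 16321 CPM in young CCCP libraries, against 416 to 2198 CPM in young controls. The part of either marker list in the results for the polymerase genes was not tested. In sorted bulk samples, fewer cells of a type and less RNA per cell cannot be told apart.

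The members together summed to 2308 ± 215 CPM by gene total, without TMM factors, in old Mito-Q libraries (SD, n = 5), 2604 ± 275 in old controls (n = 3), 2145 ± 363 in young CCCP libraries (n = 5) and 2316 ± 242 in young controls (n = 4), and the ranges of all 4 groups overlapped. Levels were then set per kilobase of exon and scaled to the same total in each library (TPM scale), so that genes of different length could be compared. By the mean of the 4 group means, Polr2m, whose product binds polymerase II and makes it depend on Mediator, stood highest at 378 TPM. It was followed by both subunits of the polymerase II stalk, Polr2d at 288 and Polr2g at 231, and by the shared subunits Polr2e at 224 and Polr2h at 156. Among the polymerase III subunits described here the order ran from Polr3k, the small subunit used in termination and RNA cleavage, at 92.5, through Polr3c (52.4), Polr3d (24.7), Polr3e (22.5) and Polr3b (21.1), to Polr3f (12.2). The lowest of the 28 was Polr1a, the largest subunit of polymerase I, at 11.2. These levels divide by all annotated exon bases of a gene, so the order depends on that length. It was 11871 bases for Polr1a, at a coding sequence of 5151, and 7710 bases for Polr3f, at a coding sequence of 948. By the mean of the group means, largest subunits stood below second largest ones in each enzyme: 11.2 for Polr1a against 35.9 for Polr1b, 39.8 for Polr2a against 84.6 for Polr2b, and 14.8 for Polr3a against 21.1 for Polr3b. These ratios compare genes within the same libraries and were not tested. Single libraries could reverse the order. Polr3a stood at 13.5 against 5.78 for Polr3b in young control 3, and Polr2a at 69.3 against 17.1 for Polr2b in young CCCP 3.

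The exons of 10 members share bases with a gene on the opposite strand, and none with a gene on the same strand. The shared part was 26.8% of the exon bases of Polr2i (with Tbcb), 18.1% of Polr2c (with Dok4), 15.9% of Polr2j (with Lrwd1) and 9.44% or less in the other 7. Whether counting used strand is not given in the sources used here, so how reads of these parts were counted is not known. Polr2k also has a processed pseudogene, Polr2k-ps. Reads shared with it could be split or be among those not aligned uniquely, which were assigned to no gene.

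The effect of age was read from old controls against young controls. The 4 smallest p-values among the members belonged to Polr2a and Polr2b, the largest subunits of polymerase II, which had lower values in old controls, and to Polr2h and Polr2e, shared by all 3 enzymes, which had higher ones. None was called. Polr2a (ENSMUSG00000005198, chr11:69733997-69758637, minus strand), which carries the catalytic centre and the C-terminal repeat tail, had 61.3, 51.4 and 55.2 CPM in old controls, against 169.8, 119, 93.8 and 143 CPM in young controls. The groups did not overlap, and the log2 fold change was -1.23 (SE 0.34, edgeR quasi-likelihood test, Benjamini-Hochberg adjusted p = 0.0676). Polr2b (ENSMUSG00000029250, chr5:77310147-77349324, plus strand), the other side of the active cleft, had 107, 75.2 and 75.3 CPM in old controls, against 233, 195, 185 and 161 CPM in young controls. Every old control was again below every young control, at a log2 fold change of -1.17 (SE 0.37, edgeR adjusted p = 0.114).

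The shared subunits pointed the other way and were more scattered. Polr2h (ENSMUSG00000021018, chr16:20717665-20722267, plus strand) had 60.9, 173 and 257 CPM in old controls, against 82.9, 72.6, 38.7 and 62.8 CPM in young controls. Old control 1 lay inside the young range and the other 2 far above it, and the log2 fold change was 1.34 (SE 0.38, edgeR adjusted p = 0.0736). Polr2e (ENSMUSG00000004667, chr10:80035949-80039795, minus strand), known from yeast to sit in the jaw that holds downstream DNA, had 196, 348 and 474 CPM in old controls, against 163, 209, 144 and 175 CPM in young controls. Old control 1 again stood lowest of its group and inside the young range, and the log2 fold change was 0.97 (SE 0.29, edgeR adjusted p = 0.0959). Polr1c (ENSMUSG00000067148, chr17:46243920-46248054, minus strand), part of the assembly platform of polymerases I and III, had 104, 89.3 and 114 CPM in old controls, against 57.7, 65.3, 61.4 and 46.2 CPM in young controls. The groups did not overlap, at a log2 fold change of 0.83 (SE 0.34, edgeR adjusted p = 0.262).

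The regions around the start sites of the 4 members with the smallest p-values between old and young controls are shown because Polr2a and Polr2b differed in one direction and Polr2h and Polr2e in the other. Each run holds 250 bases before and 50 after the start given by RefSeq on GRCm38.p6, and letters in capitals mark matches to the GC box GGGCGG or the TATA box TATAAA on either strand. They are Polr2a at chr11:69758584-69758883 on the minus strand, Polr2b at chr5:77310234-77310533 on the plus strand, Polr2h at chr16:20717576-20717875 on the plus strand (the first of its listed starts) and Polr2e at chr10:80039610-80039909 on the minus strand.
Polr2a: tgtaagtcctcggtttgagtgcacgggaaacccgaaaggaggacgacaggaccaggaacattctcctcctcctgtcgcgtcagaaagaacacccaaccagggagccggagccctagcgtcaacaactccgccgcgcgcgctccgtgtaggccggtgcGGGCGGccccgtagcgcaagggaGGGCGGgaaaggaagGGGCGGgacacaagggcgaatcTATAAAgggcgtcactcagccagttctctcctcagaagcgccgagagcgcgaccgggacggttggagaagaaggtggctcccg
Polr2b: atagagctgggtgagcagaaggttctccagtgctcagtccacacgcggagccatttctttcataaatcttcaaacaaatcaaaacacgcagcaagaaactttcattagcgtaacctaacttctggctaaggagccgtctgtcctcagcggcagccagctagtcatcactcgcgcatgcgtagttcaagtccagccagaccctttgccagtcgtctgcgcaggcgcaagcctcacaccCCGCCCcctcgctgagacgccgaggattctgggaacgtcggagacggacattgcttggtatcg
Polr2h: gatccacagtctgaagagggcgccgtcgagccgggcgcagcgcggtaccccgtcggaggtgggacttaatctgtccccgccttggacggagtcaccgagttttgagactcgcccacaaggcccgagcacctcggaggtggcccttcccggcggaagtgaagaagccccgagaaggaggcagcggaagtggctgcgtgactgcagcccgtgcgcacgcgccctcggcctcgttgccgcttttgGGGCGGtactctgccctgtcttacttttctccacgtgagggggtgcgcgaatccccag
Polr2e: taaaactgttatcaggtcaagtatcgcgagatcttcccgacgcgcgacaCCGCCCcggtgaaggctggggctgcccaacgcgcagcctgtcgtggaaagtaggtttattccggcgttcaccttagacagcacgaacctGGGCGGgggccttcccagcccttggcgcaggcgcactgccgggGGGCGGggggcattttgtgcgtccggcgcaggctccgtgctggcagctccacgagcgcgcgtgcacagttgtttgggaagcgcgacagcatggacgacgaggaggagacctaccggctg
The GC box occurred 3 times in the Polr2a run, once in that of Polr2b, once in that of Polr2h and 3 times in that of Polr2e, so both directions of difference hold it. Only the Polr2a run held the TATA box among these 4. Over the 22 members with an entry, 63.6% held a GC box, against 49.2% of 17491 protein-coding genes. The letters CCGGAAG, a core bound by ETS factors, were found in 31.8% of the 22 members, against 12.9% of these genes. CCAAT was found in 31.8% against 42.3%, and TATAAA in 9.09% against 14.8%. Both strands were searched, no motif searched contains another, and a match describes letters and not binding.

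Of all genes tested, 415 were called between old and young controls, 1.69% of them, and 0 of the 28 members. At an unadjusted p below 0.05, 5 members (Polr2a, Polr2h, Polr2e, Polr2b, Polr1c) stood beside 14.2% of all genes. DESeq2 called 4 members, Polr2a, Polr2b, Polr2e and Polr2h, and 6.99% of the genes it gave an adjusted p. limma-voom with quality weights called 14 members and 13.4% of all genes. Without young control 3, edgeR called Polr2a and Polr2f (1.98% of all genes), and without old control 1 it called Polr2e and Polr2h (2.54%). Without old control 3 the log2 fold change of Polr2h was 0.86 (edgeR adjusted p = 0.508) and that of Polr2e 0.64 (edgeR adjusted p = 0.55). With young CCCP 3 and young control 3 both left out it called 4, Polr2a, Polr2b, Polr2f and Polr2j (5.43%). With other settings edgeR called Polr2e and Polr2h with DESeq2 size factors (1.72% of genes) or a minimum count of 50 (4.52%), Polr2h with upper-quartile factors (1.74%) and Polr2a with the share of reads assigned to no gene as a covariate (2.13%). Of the members, 1 was higher with no overlap (Polr1c), against 5.04% of all genes, and 2 were lower (Polr2a and Polr2b), against 6.5%. The median log2 fold change of the members was 0.27, with 18 above 0, and that of all genes was 0.16. The members' median was 0.04 without old control 3, 0.13 without old control 2 and 0.44 without old control 1, and the median of all genes turned to -0.35 without old control 1.

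**Figure D1:**
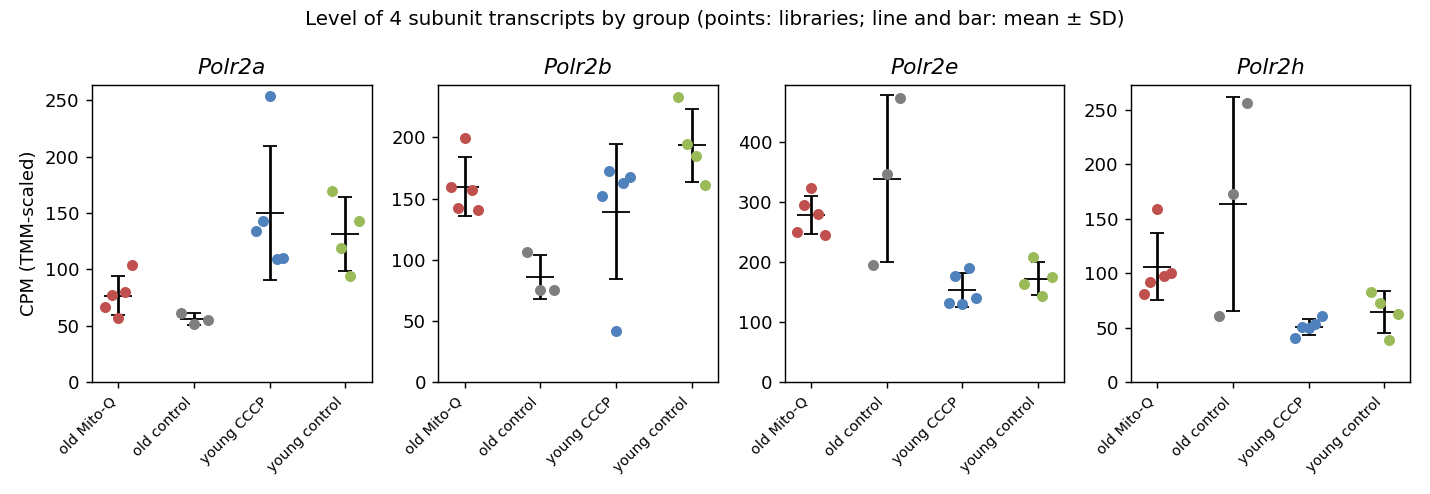
Level in CPM with TMM factors (vertical axis) for Polr2a, Polr2b, Polr2e and Polr2h in each of the 17 libraries, grouped as old Mito-Q, old control, young CCCP and young control. Points are libraries, and horizontal marks and bars are the group mean and SD. Polr2a and Polr2b were lowest in old controls, at means of 55.9 and 85.7 CPM, where Polr2e and Polr2h were highest and most scattered.

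Mito-Q was compared with control in old mice. Again no member was called. The core subunits Polr2b and Polr3a of polymerases II and III had higher values in old Mito-Q libraries, and Polr1c, of the platform of polymerases I and III, had lower ones. Polr2b had 159.8, 142, 199.7, 157 and 140.5 CPM in old Mito-Q libraries, against 107, 75.2 and 75.3 CPM in old controls. All 5 Mito-Q libraries were above all 3 controls, at means of 159.9 ± 23.8 and 85.7 ± 18.1 CPM (SD) and a log2 fold change of 0.90 (SE 0.35, edgeR quasi-likelihood test, Benjamini-Hochberg adjusted p = 0.371). Polr1c had 72.7, 42.9, 72.4, 45.4 and 62.9 CPM in old Mito-Q libraries, against 104, 89.3 and 114 CPM in old controls. Here every Mito-Q library was below every control, at a log2 fold change of -0.79 (SE 0.32, edgeR adjusted p = 0.395).

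Polr3a (ENSMUSG00000025280, chr14:24448696-24487058, minus strand), the largest subunit of polymerase III, had 38.7, 39.6, 28.4, 52.4 and 22.7 CPM in old Mito-Q libraries, against 25.3, 12.2 and 7.07 CPM in old controls. Old control 1 lay among the Mito-Q libraries and the other 2 controls below them, and the log2 fold change was 1.28 (SE 0.55, edgeR adjusted p = 0.421). Polr2a had 66.8, 77.5, 56.5, 79.6 and 104 CPM in old Mito-Q libraries, against 61.3, 51.4 and 55.2 CPM in old controls. The groups overlapped at their edges, and the log2 fold change was 0.46 (SE 0.32, edgeR adjusted p = 0.703). The shared subunits had wide spreads in old controls. Polr2e had 250.5, 295, 323, 281 and 246 CPM in old Mito-Q libraries, against 196, 348 and 474 CPM in old controls, and Polr2h had 80.9, 91.5, 159, 97.6 and 100.3 CPM in old Mito-Q libraries, against 60.9, 173 and 257 CPM in old controls. The controls spanned the whole Mito-Q range in both, at log2 fold changes of -0.28 (SE 0.28, edgeR adjusted p = 0.832) for Polr2e and -0.63 (SE 0.36, edgeR adjusted p = 0.591) for Polr2h.

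Between old Mito-Q and old control, 133 genes were called, 0.542% of those tested, and 0 members. At an unadjusted p below 0.05 there were 3 members (Polr2b, Polr1c, Polr3a), beside 10% of all genes. DESeq2 called 0 members and 2.19% of genes, and limma-voom called 2, Polr2b and Polr2f, and 4.93% of genes. Polr2b was also called, with 1.46% of all genes, when young CCCP 3 and young control 3 were both left out of the fit. Of the members, 1 was higher with no overlap (Polr2b), against 3.87% of all genes, and 1 lower (Polr1c), against 2.2%. The median log2 fold change was -0.25 over the members, with 10 above 0, and -0.12 over all genes. Without old control 3 the members' median was -0.0032, without old control 2 it was -0.15 and without old control 1 it was -0.48, where the median of all genes turned to 0.31.

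CCCP was compared with control in young mice. The lowest p-values belonged to small subunits, all lower in value in young CCCP libraries, and none was called. Polr1d (ENSMUSG00000029642, chr5:147077050-147111597, plus strand), the partner of Polr1c in the platform of polymerases I and III, had 62.4, 58.0, 81.7, 61.5 and 67.8 CPM in young CCCP libraries, against 90.4, 111, 201 and 110.0 CPM in young controls. Every CCCP library was below every control, at means of 66.3 ± 9.29 and 128 ± 49.7 CPM (SD), and the log2 fold change was -0.95 (SE 0.31, edgeR quasi-likelihood test, Benjamini-Hochberg adjusted p = 0.246). Polr2i (ENSMUSG00000019738, chr7:30231948-30233390, plus strand), a small subunit of polymerase II known in yeast to aid transcript cleavage, had 32.9, 21.5, 27.6, 30.0 and 27.5 CPM in young CCCP libraries, against 33.4, 49.8, 103 and 26.4 CPM in young controls. The groups overlapped, at a log2 fold change of -0.93 (SE 0.41, edgeR adjusted p = 0.398). Polr2l (ENSMUSG00000038489, chr7:141471860-141475132, minus strand), a small subunit of all 3 enzymes, had 18.0, 18.3, 31.3, 14.2 and 19.4 CPM in young CCCP libraries, against 27.6, 24.1, 71.8 and 29.9 CPM in young controls. Young control 3 stood far above the rest of its group and young CCCP 3 lay among the controls, and the log2 fold change was -0.92 (SE 0.42, edgeR adjusted p = 0.418). Young control 3 was also the highest young control for Polr1d. Without young control 3 the log2 fold change was -0.68 for Polr1d (edgeR adjusted p = 0.64). It was -0.41 for Polr2i (edgeR adjusted p = 0.919) and -0.47 for Polr2l (edgeR adjusted p = 0.904).

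The stalk subunit Polr2d gave a log2 fold change of -0.67 (SE 0.31, edgeR adjusted p = 0.42). The 2 large subunits of polymerase II differed less. Polr2a had 134, 143, 254, 109.6 and 109.9 CPM in young CCCP libraries, against 169.8, 119, 93.8 and 143 CPM in young controls, and Polr2b had 152, 173, 41.4, 162 and 168 CPM in young CCCP libraries, against 233, 195, 185 and 161 CPM in young controls. Young CCCP 3 was the highest of its group for Polr2a and the lowest for Polr2b, and the log2 fold changes were 0.19 (SE 0.29, edgeR adjusted p = 0.873) for Polr2a and -0.47 (SE 0.31, edgeR adjusted p = 0.616) for Polr2b. Of all genes tested, 176 were called (0.718%), and 0 members. At an unadjusted p below 0.05 there were 4 members (Polr1d, Polr2i, Polr2l, Polr2d), beside 11.2% of all genes. DESeq2 called 0 members and 2.94% of genes, and limma-voom called 0 and 1.48%. No member was higher with no overlap, against 1.78% of all genes, and 1 was lower (Polr1d), against 2.89%. The median log2 fold change was -0.29 over the members, with 10 above 0, and 0.21 over all genes. Without young CCCP 3 and young control 3 the medians were -0.14 over the members and 0.08 over all genes. At a minimum count of 50 they were -0.27 and 0.05. With the share of reads assigned to no gene as a covariate they were -0.20 and 0.0085. A list of 6 mitosis genes summed to 536 to 851 CPM in young CCCP libraries, against 362 to 493 CPM in young controls, and their part in these values was not tested.

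Old Mito-Q libraries were also set against young controls, a comparison that shares libraries with the others. Here 35 genes were called (0.143% of those tested) and 0 members, with 3 members at an unadjusted p below 0.05 beside 7.89% of all genes. DESeq2 called 0 members (0.898% of genes) and limma-voom called 0 (0.775%). The 3 were Polr2a, at a log2 fold change of -0.77 (SE 0.29, edgeR adjusted p = 0.544), Polr2e at 0.69 (SE 0.26, edgeR adjusted p = 0.544) and Polr2h at 0.72 (SE 0.34, edgeR adjusted p = 0.614). Polr2e did not overlap: it had 250.5, 295, 323, 281 and 246 CPM in old Mito-Q libraries, against 163, 209, 144 and 175 CPM in young controls. It was the only member of which all old Mito-Q libraries were higher, against 1.65% of all genes, and 0 members were lower throughout, against 1.36%. The members' median log2 fold change was -0.04 and that of all genes 0.01.

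The large subunits of polymerase I overlapped between treated and control libraries of both ages. Polr1a (ENSMUSG00000049553, chr6:71909053-71984935, plus strand) had 50.5, 44.3, 63.2, 28 and 66.3 CPM in old Mito-Q libraries, against 47.9, 6.28 and 34.3 CPM in old controls. In young mice it had 48.8, 65.3, 89.4, 86.5 and 81.6 CPM in young CCCP libraries, against 67.3, 35.2, 11.1 and 44.2 CPM in young controls. Old control 2 and young control 3 were far below the rest, and the log2 fold changes were 0.77 (SE 0.52, edgeR adjusted p = 0.675) for Mito-Q and 0.91 (SE 0.47, edgeR adjusted p = 0.49) for CCCP. Polr1b (ENSMUSG00000027395, chr2:129100995-129126594, plus strand) had 58.0, 114, 51.8, 87.6 and 83.2 CPM in old Mito-Q libraries, against 75.8, 47.4 and 21.6 CPM in old controls. In young mice it had 99.9, 87.2, 42.4, 111 and 92.1 CPM in young CCCP libraries, against 99.5, 103, 23.5 and 94.7 CPM in young controls. Young control 3 was far below the other young controls, and the log2 fold changes were 0.71 (SE 0.45, edgeR adjusted p = 0.643) for Mito-Q and 0.11 (SE 0.40, edgeR adjusted p = 0.959) for CCCP. Old controls against young controls gave -0.42 (SE 0.53, edgeR adjusted p = 0.807) for Polr1a and -0.73 (SE 0.47, edgeR adjusted p = 0.515) for Polr1b. Polr1e, whose product pairs with that of Cd3eap on polymerase I, gave log2 fold changes of -0.28 for Mito-Q, -0.09 for CCCP and 0.37 for age.

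Polymerase III offers a pair of exchangeable subunits. Polr3g and Polr3gl encode alternative forms of the same position in the initiation trimer, which also holds the products of Polr3c and Polr3f, and in mouse and human cells Polr3g is known for its high level in pluripotent stem cells. Polr3g (ENSMUSG00000035834, chr13:81673843-81711013, minus strand) had 32.2, 20.9, 11.3, 14.6 and 11.7 CPM in old Mito-Q libraries, against 18.4, 32.0 and 25.6 CPM in old controls. In young mice it had 31.9, 18.0, 7.78, 17.6 and 9.76 CPM in young CCCP libraries, against 24.8, 30.1, 18.5 and 9.12 CPM in young controls. All 4 groups overlapped. Polr3gl (ENSMUSG00000028104, chr3:96577872-96594181, minus strand) had 8.99, 8.09, 1.96, 8.14 and 12.0 CPM in old Mito-Q libraries, against 13.8, 7.43 and 20.0 CPM in old controls. In young mice it had 10.1, 12.8, 23.9, 13.9 and 14.6 CPM in young CCCP libraries, against 12.9, 6.96, 10.7 and 9.92 CPM in young controls. This gene held the lowest count among the members, and the groups overlapped here too. Per length, Polr3g averaged 11.8 in old Mito-Q libraries, 14.7 in old controls, 14.1 in young CCCP libraries and 14.3 in young controls. Polr3gl averaged 12.7, 20.1, 26.8 and 17.1 in the same groups. The exon bases used were 3936 for Polr3g and 1597 for Polr3gl, at coding sequences of 669 and 654 bases. For Polr3g the log2 fold changes were -0.48 (SE 0.54, edgeR adjusted p = 0.862) for Mito-Q and -0.28 (SE 0.50, edgeR adjusted p = 0.898) for CCCP, and for Polr3gl they were -0.81 (SE 0.64, edgeR adjusted p = 0.749) and 0.58 (SE 0.60, edgeR adjusted p = 0.787).

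Polr3b (ENSMUSG00000034453, chr10:84622292-84727178, plus strand), the second largest subunit of polymerase III, had 51.2, 50.7, 34.2, 38.9 and 25.3 CPM in old Mito-Q libraries, against 24.9, 26.8 and 50.05 CPM in old controls. In young mice it had 53.4, 46.4, 83.2, 40.5 and 65.6 CPM in young CCCP libraries, against 40.5, 21.8, 16.8 and 58.7 CPM in young controls. Its groups overlapped in both ages, at log2 fold changes of 0.24 (SE 0.42, edgeR adjusted p = 0.927) for Mito-Q and 0.74 (SE 0.39, edgeR adjusted p = 0.499) for CCCP. Polr3a had 28.6, 52.3, 10.9, 48.0 and 65.6 CPM in young CCCP libraries, against 23, 16.4, 43.3 and 43.9 CPM in young controls. Young CCCP 3 was lowest among its group, and the log2 fold change was 0.38 (SE 0.48, edgeR adjusted p = 0.837). Over all 10 polymerase III subunits, 5 had log2 fold changes above 0 for Mito-Q, 7 for CCCP and 5 for age.

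For 13 members not yet given by library, the lowest and highest level of each group follow. Among polymerase II subunits, the platform subunit Polr2c ran from 77.7 to 139.7 CPM in old Mito-Q libraries, 90.04 to 147 in old controls, 59.3 to 96.0 in young CCCP libraries and 76.9 to 123.3 in young controls. Its partner Polr2j ran from 41.9 to 113 CPM in old Mito-Q libraries, 48.3 to 146 in old controls, 27.2 to 114 in young CCCP libraries and 31.9 to 131 in young controls. For Polr2j the top of the young ranges came from young CCCP 3 and young control 3. The stalk subunit Polr2d ran from 81.4 to 190.2 CPM in old Mito-Q libraries, 91.2 to 212 in old controls, 50.7 to 96.5 in young CCCP libraries and 82.9 to 134 in young controls. Polr2g, the other stalk subunit, ran from 80.7 to 235 CPM in old Mito-Q libraries, 87.9 to 257 in old controls, 58.4 to 94.7 in young CCCP libraries and 55.4 to 232 in young controls. For both, old control 3 was the highest library of its group. The associated factor Polr2m ran from 193 to 496 CPM in old Mito-Q libraries, 250.4 to 369 in old controls, 70.0 to 394 in young CCCP libraries and 178 to 528 in young controls. Young CCCP 3 alone set the low end in its group.

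Of the shared subunits, Polr2f ran from 70.4 to 209 CPM in old Mito-Q libraries, 121 to 272 in old controls, 53.9 to 129.9 in young CCCP libraries and 57.5 to 291 in young controls. Polr2k ran from 15.5 to 43.8 CPM in old Mito-Q libraries, 19.9 to 60.0 in old controls, 9.33 to 20.4 in young CCCP libraries and 14.3 to 69.0 in young controls. The highest young controls in both were young control 3. Polr1e of polymerase I ran from 29.9 to 92.2 CPM in old Mito-Q libraries, 59.2 to 74.8 in old controls, 40.6 to 56.5 in young CCCP libraries and 42.8 to 59.4 in young controls. In polymerase III, Polr3c of the initiation trimer ran from 40.9 to 71.4 CPM in old Mito-Q libraries, 31.6 to 73.5 in old controls, 62.7 to 117 in young CCCP libraries and 42.6 to 106 in young controls. Another subunit of that trimer, Polr3f, ran from 22.2 to 44.1 CPM in old Mito-Q libraries, 11.8 to 26 in old controls, 32.1 to 98.2 in young CCCP libraries and 15.2 to 56.2 in young controls. Both had their lowest young control in young control 3. Polr3d ran from 9.48 to 40.7 CPM in old Mito-Q libraries, 18.3 to 40.3 in old controls, 13 to 36.6 in young CCCP libraries and 15.4 to 37.7 in young controls. Its partner Polr3e ran from 20.1 to 71.4 CPM in old Mito-Q libraries, 37.3 to 38.1 in old controls, 15.2 to 68.6 in young CCCP libraries and 19.4 to 44.3 in young controls. Both were lowest of the old Mito-Q libraries in old Mito-Q 3. The small subunit Polr3k ran from 67.7 to 208 CPM in old Mito-Q libraries, 60.8 to 211 in old controls, 18.5 to 119 in young CCCP libraries and 88.6 to 144 in young controls. Library ranges of these 13 members overlapped in all 4 comparisons.

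These 13 members gave the following log2 fold changes, none at an unadjusted p below 0.05 except where stated above. Polr2c and Polr2j, whose products pair in the assembly platform of polymerase II, gave -0.17 and -0.68 for Mito-Q, -0.31 and -0.10 for CCCP, and 0.40 and 0.84 for age. The stalk subunits Polr2d and Polr2g gave -0.28 and -0.48 for Mito-Q and 0.53 and 0.63 for age, and Polr2g gave -0.56 for CCCP. Polr2m gave 0.18 for Mito-Q, -0.41 for CCCP and -0.43 for age. Among subunits shared by all 3 enzymes, Polr2f gave -0.77, -0.66 and 0.71 for Mito-Q, CCCP and age, and Polr2k gave -0.82, -0.96 and 0.48. With Polr2e, Polr2h and Polr2l, these 5 subunits were all above 0 for age (median 0.71) and all below 0 for Mito-Q (-0.63) and for CCCP (-0.66), also under the other 3 scalings tried, and 4 of 5 were above 0 for age with an offset for exon length. All 5 are among the 15 members of shortest coding sequence, so the direction was not particular to shared subunits. Of those 15, 14 were above 0 for age, 1 for Mito-Q and 3 for CCCP. The same old controls enter age and Mito-Q with opposite signs, and the same young controls are the reference for age and CCCP. The directions in these comparisons are therefore not independent. For age 4 of the 5 were above 0 without young control 1, 2 or 4 or old control 2 or 3, and the median was 0.42 without old control 3 and 1.18 without young control 3. Without old control 3, 2 of the 5 were above 0 for Mito-Q (median -0.14), and without young control 3, 1 was above 0 for CCCP (-0.26). Polr3d and Polr3e, whose products form a pair on polymerase III, gave -0.00 and 0.29 for Mito-Q, -0.35 and 0.49 for CCCP, and -0.08 and 0.19 for age. Polr3c and Polr3f of the initiation trimer gave 0.25 and 0.81 for Mito-Q, 0.18 and 0.48 for CCCP, and -0.59 and -1.0 for age. Polr3k gave -0.33 for Mito-Q, -0.53 for CCCP and 0.28 for age.

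Direction of difference varied with the size of the subunit. Coding sequence length was divided at 1008 and 1848 bases, which splits 16730 protein-coding genes into 3 bins of nearly equal size, and placed 15 members in the shortest bin, 6 in the middle and 7 in the longest (Polr1a, Polr1b, Polr2a, Polr2b, Polr3a, Polr3b, Polr3e). In old Mito-Q against old control, log2 fold changes were above 0 for 7 of the 7 longest and 1 of the 15 shortest, with medians of 0.71 and -0.34, beside 0.15 and -0.33 for all genes of those bins. In young CCCP against young control they were above 0 for 6 of 7 and 3 of 15, with medians of 0.38 and -0.53, beside 0.34 and -0.03. In old against young controls they were above 0 for 1 of 7 and 14 of 15, with medians of -0.73 and 0.48, beside -0.26 and 0.45. In old Mito-Q against young control they were above 0 for 4 of 7 and 6 of 15, with medians of 0.20 and -0.06, beside -0.13 and 0.13. Across the 28 members the Spearman correlation of coding length with log2 fold change was 0.73, 0.70, -0.67 and -0.01 in these comparisons, in the same order, and across all coding genes it was 0.17, 0.17, -0.21 and -0.13. The coding genes were not matched to the members by level, and the part of level in the unlike correlations was not tested. With an offset in each library for exon length, added after the data were seen, the counts above 0 among the 7 longest and 15 shortest were 7 and 1 for Mito-Q (medians 0.68 and -0.38), 4 and 3 for CCCP (0.01 and -0.84), and 2 and 13 for age (-0.60 and 0.18). Without young CCCP 3 and young control 3 they were 4 and 3 for CCCP (0.36 and -0.14) and 0 and 13 for age (-0.92 and 0.65). Without old control 3 they were 7 and 4 for Mito-Q (0.66 and -0.12) and 1 and 12 for age (-0.62 and 0.22). These points share libraries and the comparisons share control libraries, so the values are descriptions.

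**Figure D2:**
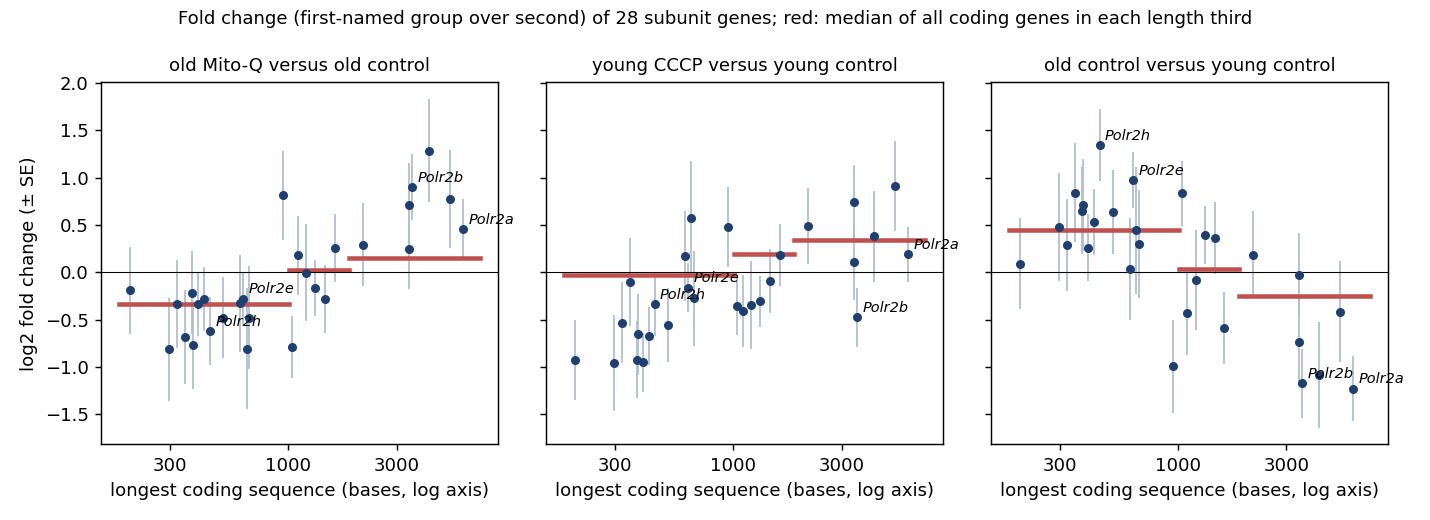
Log2 fold change (vertical axis) against the length of the longest coding sequence in bases (log horizontal axis) for the 28 members in 3 comparisons, 1 a panel: the Mito-Q effect in old mice, the CCCP effect in young mice, and the age difference between controls. Each point is a gene with its standard error, and the red lines give the median of all protein-coding genes in each of the 3 length bins. The 7 longest members all lay above 0 for old Mito-Q against old control, and 14 of the 15 shortest lay above 0 for old against young controls (13 with library totals as the scaling).

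The same split showed in single libraries. The geometric mean CPM of the 5 subunits shared by all 3 enzymes was divided by that of the 6 largest and second largest subunits. This ratio was 0.917, 1.13, 2.11, 1.08 and 0.971 in old Mito-Q libraries, against 1.2, 4.41 and 4.93 in old controls, and 0.471, 0.547, 0.923, 0.512 and 0.487 in young CCCP libraries, against 0.652, 0.996, 2.47 and 0.613 in young controls. Old controls 2 and 3 stood highest, and old control 1 lay inside the Mito-Q range. Young control 3 stood apart from its group, and 4 of the 5 CCCP libraries were below every young control. The geometric mean of Polr2c, Polr2d, Polr2g, Polr2i and Polr2j, of polymerase II only, ran from 71.2 to 159.8 CPM in old Mito-Q libraries and 70.0 to 159.7 in old controls. It ran from 45.9 to 61.9 CPM in young CCCP libraries and 55.0 to 130.3 in young controls. That of the 5 shared subunits ran from 57.8 to 121.5, 59.7 to 158.7, 34.5 to 53.2 and 48.6 to 95.8 CPM in the same groups. Old control 1, whose share of reads assigned to no gene was the highest of its group at 68.8%, was lowest of the 3 old controls for 17 members, 13 of them in the shortest bin, and highest for 6 of the 7 longest. Old control 3 was highest for 15 members, 13 of them in the shortest bin. Old Mito-Q 3 was highest of its group for 13 members, 11 of them in the shortest bin. Coding length was also set against each library's log2 difference from the gene's mean over all libraries. Over 16730 coding genes the Spearman correlation was 0.10, -0.32 and -0.30 in old controls 1, 2 and 3. Over the 28 members it was 0.04, -0.81 and -0.83. So the direction by length in old controls 2 and 3 was not particular to the members. In old Mito-Q 3 the values were -0.11 and -0.66, and in young control 3 -0.03 and -0.59. The part of library differences in the results by length was not tested.

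**Figure D3:**
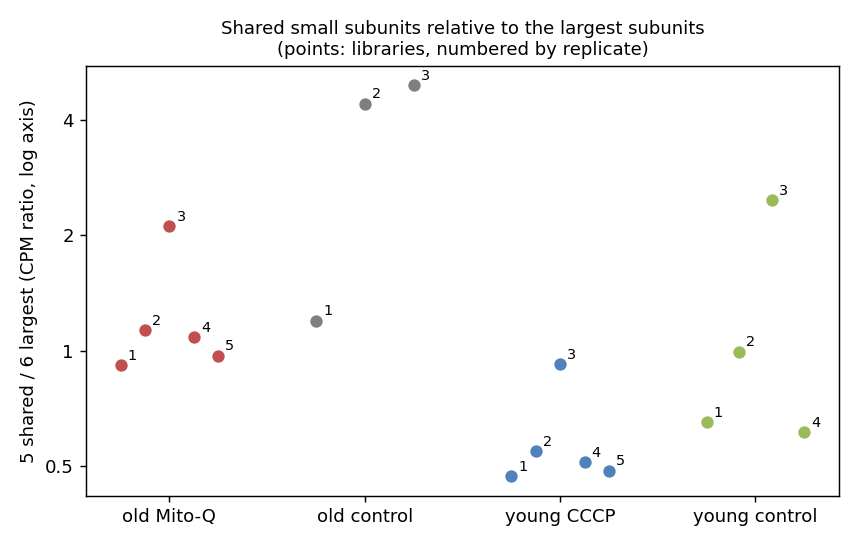
Ratio of the geometric mean CPM of 5 shared subunits to that of 6 largest and second largest subunits (vertical log axis) in each of the 17 libraries by group. Points are libraries. Old controls 2 and 3 stood at 4.41 and 4.93, and 4 young CCCP libraries stood between 0.471 and 0.547.

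The spread of the members within groups was set beside that of other coding genes. The median coefficient of variation was 33.3% in old Mito-Q libraries, 38.9% in old controls, 30.9% in young CCCP libraries and 39.3% in young controls. Among 9178 protein-coding genes in the same range of mean level it was 34.2%, 36.3%, 36.0% and 37.9% in the same groups. Absolute log2 fold changes were set against all genes tested, which were not matched to the members by level. The median was 0.40 against 0.68 for Mito-Q, 0.44 against 0.69 for CCCP, 0.50 against 0.85 for age and 0.22 against 0.56 for old Mito-Q against young control. The part of expression level in these smaller values was not tested.

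**Figure D4:**
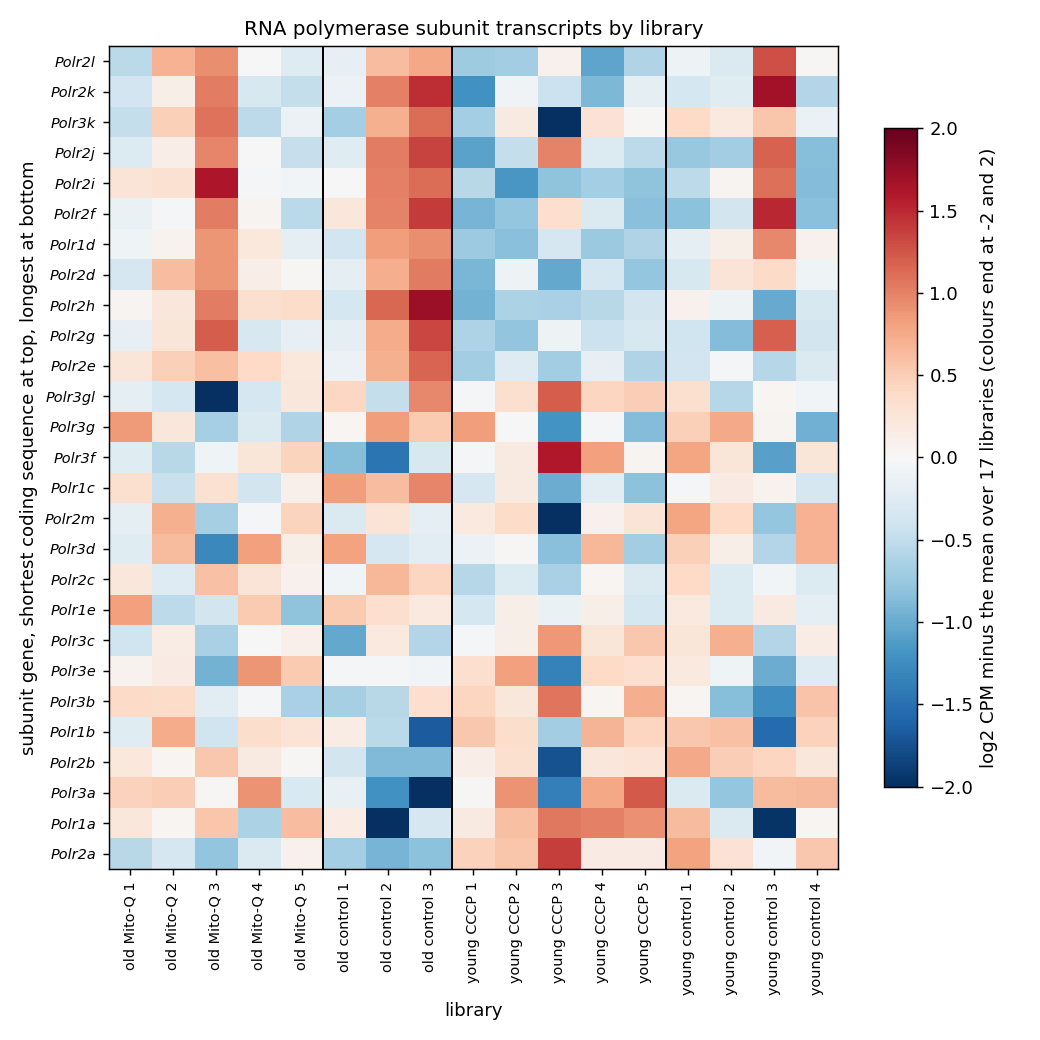
Log2 level of 27 of the 28 members (rows, shortest coding sequence at the top) in each of the 17 libraries (columns, by group), given as the difference from that gene's mean over the libraries. Colour gives the difference on the log2 scale and ends at -2 and 2. Polr2e and Polr2h were highest in old controls 2 and 3, the shared subunits Polr2f, Polr2k and Polr2l were highest in young control 3, and young CCCP 3 differed from the rest of its group for genes such as Polr2m and Polr2b.

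Genes that work with the polymerases were read from 5 lists holding 52 genes, of which edgeR called 0 in each comparison. The counts at an unadjusted p below 0.05 were 3 for Mito-Q, 5 for CCCP, 9 for age and 3 for old Mito-Q against young control, beside the background shares given above. Of these 52, 4 are subunits with other symbols: Twistnb and Cd3eap of polymerase I, Znrd1, its small cleavage subunit, and Crcp of the polymerase III stalk. Their log2 fold changes were above 0 in 0 of 4 for Mito-Q (median -0.72), in 2 of 4 for CCCP (-0.21) and in 4 of 4 for age (0.80). Znrd1 averaged 30.0 ± 16.5 CPM in young CCCP libraries and 103 ± 66.3 CPM in young controls (SD), at a log2 fold change of -1.77 (SE 0.47, edgeR adjusted p = 0.0908). Twistnb gave -0.97 (SE 0.29, edgeR adjusted p = 0.188) for CCCP. Cd3eap gave -1.30 (SE 0.50, edgeR adjusted p = 0.37) for Mito-Q and 1.43 (SE 0.53, edgeR adjusted p = 0.21) for age.

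Of 17 polymerase III factors (TFIIIA, TFIIIB, TFIIIC, SNAPc and Maf1), 8 had log2 fold changes above 0 for Mito-Q, 8 for CCCP and 10 for age. Gtf3c4, a TFIIIC subunit, gave 1.81 (SE 0.53, edgeR adjusted p = 0.19) for Mito-Q, 1.26 (SE 0.46, edgeR adjusted p = 0.316) for CCCP and -1.12 (SE 0.53, edgeR adjusted p = 0.34) for age. Of 7 polymerase I factors, 4 were above 0 in each of these comparisons, with medians of 0.02, 0.06 and 0.06 for Mito-Q, CCCP and age. Among 20 genes of polymerase assembly and tail phosphatases, 15 were above 0 for Mito-Q, 9 for CCCP and 7 for age. Rprd1a, which binds the phosphorylated tail of Polr2a, averaged 29.8 ± 8.81 CPM in young CCCP libraries and 8.65 ± 2.93 CPM in young controls (SD), at 1.78 (SE 0.46, edgeR adjusted p = 0.0819). Scaf8, a tail-binding factor, gave -1.12 (SE 0.33, edgeR adjusted p = 0.0912) for age. Of the mitochondrial polymerase and its factors, Polrmt gave 1.40 (SE 0.52, edgeR adjusted p = 0.327) for CCCP and Tefm, its elongation factor, gave 1.14 (SE 0.44, edgeR adjusted p = 0.226) for age.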

How the data were processed

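RNA was sequenced in bulk from 17 libraries of sorted marrow cells, made with Nextera XT at reduced volume per the labels. The submitters' processing notes name Trim Galore, STAR 2.7 and GRCm38. The deposited values are unnormalized read counts of the authors, 1 file per library with Ensembl gene IDs. The program that counted, its strand setting and its annotation release are not given in the sources used here. Of the 54838 gene IDs, 54809 matched GENCODE M21. The 5 footer entries of reads assigned to no gene (37.7% to 76.2% of all entries) stayed out of library sizes and tests. Gene totals ran from 5649611 to 8120443 reads. Libraries of a group were compared for duplicates by chi-square over genes, and the smallest value, divided by its degrees of freedom, was 16.6.

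A single fit of the 17 libraries in edgeR 4.0.16 (R 4.3.3) used TMM factors, filterByExpr at a minimum count of 10 and robust quasi-likelihood dispersions, with no covariate. The two-sided quasi-likelihood F-test covered 24523 genes, and a Benjamini-Hochberg adjusted p below 0.05 was a call. CPM values carry TMM factors. Fold changes are log2, with standard errors from the fold change and the square root of F. Alternatives were other scalings and filters, DESeq2 1.42.0, limma-voom (limma 3.58.1), only the groups compared, a replicate block, a covariate for reads assigned to no gene, omitted libraries and an offset for exon length. The scripts were checked on simulated data. Promoters came from RefSeq tables for GRCm38.p6, which matched 22 of the 28 members by symbol. Counts and medians cover all 28 members, and the values of 1 of them are not reported here. Values in every library are given for the 3 of smallest p in each comparison, the 2 largest subunits of each enzyme, Polr3g and Polr3gl. Of each pathway list, the 2 genes of smallest p in a comparison could be named. The members, lists and tests were chosen with earlier results of these data known. Counting reads without molecular identifiers means that counting precision covers counting error only.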

Additional observations from a re-analysis of the deposited data

Results flagged for a closer look

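Each member's CPM was examined in the groups of 4 or 5 libraries for a single library whose gap to its nearest neighbour was large against the group's range (Dixon's test at 95%). Of 84 such groups 16 met it (19.05%), where chance gives about 1 in 20. All 16 fell on 3 libraries: old Mito-Q 3, young CCCP 3 and young control 3.

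Old Mito-Q 3 was the highest of its group for small subunits. Polr1d stood at 190.9 CPM beside 91.2 to 119.3 in the other 4 libraries, and Polr2f at 208.5 beside 70.4 to 107.1. Polr2g stood at 234.7 beside 80.7 to 119.3, and Polr2h at 159 beside 80.9 to 100.3. Polr2i stood at 147.9 beside 46.0 to 59.4, and Polr2k at 43.8 beside 15.5 to 23.2.

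Young CCCP 3 was the highest of its group for Polr2a, at 253.5 CPM beside 109.6 to 143.3, and for Polr2j, at 114.1 beside 27.2 to 47.4. It was the lowest for Polr2b, at 41.41 beside 152.3 to 172.7, and for Polr2m, at 69.99 beside 324.5 to 394.3. So the 2 large subunits of polymerase II departed in opposite directions within this library.

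Young control 3 was the highest of its group for Polr2f (290.7 CPM beside 57.5 to 79.5), Polr2g (232.2 beside 55.4 to 78.2), Polr2j (130.5 beside 31.9 to 35.5), Polr2k (68.97 beside 14.3 to 18.1) and Polr2l (71.8 beside 24.1 to 29.9). It was the lowest for Polr1b, at 23.5 beside 94.7 to 103.1. Young control 3 and old Mito-Q 3 shared the flags for Polr2f, Polr2g and Polr2k, which encode small subunits.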

How the results depend on the processing

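The members' median kept its sign in every setting tried for Mito-Q (-0.48 to -0.0032), CCCP (-0.52 to -0.12) and age (0.04 to 0.46), and crossed 0 for old Mito-Q against young control (-0.13 to 0.11). The ends for Mito-Q came from leaving out single libraries, the upper one being old control 3. The length offset, added after the data were seen, gave -0.52 for CCCP. The cause of these shifts was not tested.

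For old against young controls, edgeR called 2 members with DESeq2 size factors (Polr2e, Polr2h), 1 with upper-quartile factors (Polr2h), 2 at a minimum count of 50 (Polr2e, Polr2h) and 1 with the covariate for reads assigned to no gene (Polr2a). DESeq2 called 4, limma-voom 14, and the fit without young CCCP 3 and young control 3 called 4. Leaving out single libraries gave 0 to 2. For Mito-Q, limma-voom called 2 and the fit without those libraries 1. No member was called in any setting for CCCP or for old Mito-Q against young control. Of the members at an unadjusted p below 0.05 in a comparison, none changed sign there in any of the settings. These members were picked by their p in the main fit, and the settings reuse its libraries. A change of sign was therefore unlikely from the start, and its absence is only a description.

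Counts over all genes moved more. For Mito-Q they were 445 by DESeq2, 1210 by limma-voom, 341 without young CCCP 3 and young control 3, and 79 to 142 with single libraries left out. For CCCP they were 324 with no filter, 558 by DESeq2, 364 by limma-voom and 111 with only the groups compared. For age they were 1263 by DESeq2, 3278 by limma-voom, 186 with only the groups compared, 1271 without the same 2 libraries, 172 with the length offset, and 125 to 684 with single libraries left out. For old Mito-Q against young control they were 90 with no filter, 187 by DESeq2, 190 by limma-voom, 68 without the 2 libraries, and 14 to 34 with single libraries left out. Upper-quartile scaling put the median of all genes for age at 0.28 (log2), against 0.16 with TMM. It was -0.22 by limma-voom and -0.12 with the covariate, and for Mito-Q 0.07 and 0.12 in these settings, against -0.12.

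The same replicate number occurred in several groups. Deviations from group means correlated at -0.11 to 0.29 over 22 same-numbered pairs, 5 of them over 0.1. The median was 0.032 over these pairs and 0.0039 over 85 pairs of unlike number. Of 17 libraries, 7 correlated best with a library of their own number. Whether a number marks libraries handled together is not stated in the labels and was not tested. With the replicate block, 0 members were called in each comparison, beside 130 genes for Mito-Q, 168 for CCCP, 404 for age and 40 for old Mito-Q against young control.

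With 3 old controls, 1 of which had 68.8% of reads assigned to no gene, the error of comparisons with that group rests on few libraries. Members with under 20 reads in a library numbered 2 of 476 values, so counting depth limits few of them.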
